A study of Mus musculus with 6 samples.

Results

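Hair cell genes were followed in bulk RNA sequencing of the mouse cochlear lateral wall, a tissue that has no hair cells of its own and is dissected away from the organ of Corti that holds them. The 10 genes were Myo7a, Myo6, Otof, Slc17a8, Slc26a5, Pou4f3, Tmc1, Lhfpl5, Loxhd1 and Ocm, taken as a given list of hair cell genes, and all 10 are among the 17091 gene symbols of the deposited table. They serve as a gauge of how much organ of Corti was carried along in each library. The animals were CBA/CaJ mice, an inbred strain, aged 2 months in the young group and 2.5 years in the old group, with 3 mice per group and no treatment or transgene named in the labels. A library was made from 1 mouse, left and right cochlea together, so the whole length of the cochlear turn is averaged. The source field of all 6 samples names auditory nerve cells, whereas the tissue field, the titles and the design text name the lateral wall.

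Hair cells are the mechanoreceptors of the inner ear. Sound deflects the hair bundle, a stair of stereocilia on the cell's upper face, and tension on the tip links opens the mechanotransduction channel. Inner hair cells pass the signal to the auditory nerve at ribbon synapses by releasing glutamate, while outer hair cells change length with voltage and amplify the vibration. Outer hair cells are lost with age in mice and humans and are not replaced.

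The libraries held 37055355 to 39103394 reads, recovered from the deposited normalised read counts, a range of 1.055-fold. Markers that define the lateral wall were abundant in every library. Coch, the fibrocyte gene of cochlin, stood at 322028 to 821557 normalised read counts, the cotransporter gene Slc12a2 at 142357 to 194835 and the melanogenic enzyme gene Dct of intermediate cells at 135921 to 186382. Old replicate 3 stood apart from the rest of the libraries: Xist, transcribed from an inactive X chromosome, had 45.2 normalised read counts there and 24382 to 29162 in the other 5. The labels give no sex. The age differences of the 10 genes are given with and without old replicate 3.

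Across the 10 hair cell genes, no difference between old and young mice passed the test. With limma on log2(value + 1) and Benjamini-Hochberg adjustment over all 17091 genes, 0 of 10 had an adjusted p under 0.05, where 5.25% of all genes did. At an unadjusted p under 0.05 the count was 2 of 10, Slc26a5 and Tmc1, both lower in old mice, where 21.3% of all genes passed by that rule in either direction and 10.6% were lower. On the recovered reads edgeR with TMM called 0 of 10 and 5.07% of all genes, and DESeq2 called 0 of 10 and 10.9% of the genes it gave an adjusted p. The authors' deposited table also holds 0 of 10 with an adjusted p under 0.05, and 10.8% of its genes. The mean log2 value was lower in old mice for 8 of the 10 genes and for 50.2% of all genes, and the median log2 fold change was −0.41 among the 10 and 0.00 over all genes. In bulk RNA, fewer hair cells in a dissection and less RNA per hair cell cannot be told apart.

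Start sites from RefSeq (GRCm38.p6) were matched for 7 of the 10 genes by symbol, with 9 start sites between them. Otof, Pou4f3 and Loxhd1 were not matched. The 250 bases before the start are shown for 3 genes that the age comparison sets apart: Slc26a5 and Tmc1, which had the smallest unadjusted p, and Slc17a8, which had the highest log2 fold change of the 10. The windows are chr5:21865605-21865854, chr19:20954203-20954452 and chr10:89621250-89621499, all on the minus strand and printed 5′ to 3′ in the direction of transcription. Capitals mark matches to CANNTG, the E-box that basic helix-loop-helix factors such as ATOH1 bind.
Slc26a5: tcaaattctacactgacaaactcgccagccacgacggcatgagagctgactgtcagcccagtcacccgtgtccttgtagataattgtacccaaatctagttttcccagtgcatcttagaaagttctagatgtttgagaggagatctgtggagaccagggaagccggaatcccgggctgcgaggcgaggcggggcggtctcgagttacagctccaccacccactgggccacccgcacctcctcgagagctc
Tmc1: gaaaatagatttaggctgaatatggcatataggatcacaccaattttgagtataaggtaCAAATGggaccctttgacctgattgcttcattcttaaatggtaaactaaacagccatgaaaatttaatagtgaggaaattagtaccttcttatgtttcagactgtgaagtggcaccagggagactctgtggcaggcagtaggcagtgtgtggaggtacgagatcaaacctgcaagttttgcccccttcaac
Slc17a8: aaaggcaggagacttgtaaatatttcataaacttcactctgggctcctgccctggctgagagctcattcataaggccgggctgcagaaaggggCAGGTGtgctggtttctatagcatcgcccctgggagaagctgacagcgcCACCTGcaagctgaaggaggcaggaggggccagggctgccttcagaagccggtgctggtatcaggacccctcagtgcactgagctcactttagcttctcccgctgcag
Slc26a5 had 0 matches in its window, Tmc1 had 1 and Slc17a8 had 2. Among the 9 start sites of the matched genes, 5 held CANNTG, and 66.2% of 32851 start sites of all genes did. The 9 include the RefSeq start of Ocm, which lies 23.9 kilobases from the start of the gene in the GENCODE annotation, and without it the count was 5 of 8. The homeodomain core TAATTA was found in 1 of the 9, another start site of Slc17a8, and in 4.84% of all start sites. Both motifs read the same on either strand, and CANNTG does not overlap TAATTA. These matches describe the letters of the windows only.

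The 10 genes spanned a wide range of levels. On the scale of normalised read counts per kilobase of exon, over all 6 libraries, Myo6 stood first at 1703 ± 117 (SD, n = 6), Ocm came next at 1300.2 ± 591 and then Slc26a5 at 90.4 ± 48.5. Otof had 60.1 ± 42.4, Lhfpl5 46.9 ± 17.8, Tmc1 42.4 ± 9.81, Myo7a 37.6 ± 9.85, Slc17a8 30 ± 17.6, Loxhd1 16.9 ± 7.84 and Pou4f3 8.71 ± 4.97 on the same scale. In that order a gene stood above the next one in all 6 libraries for Ocm over Slc26a5 and for Loxhd1 over Pou4f3, and for no other neighbours. Myo6 was above Ocm in 5 of 6 libraries, and the neighbours from Slc26a5 down to Loxhd1 changed places in 2 or 3 libraries each, so their order does not exceed the spread between mice.

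**Figure D1:**
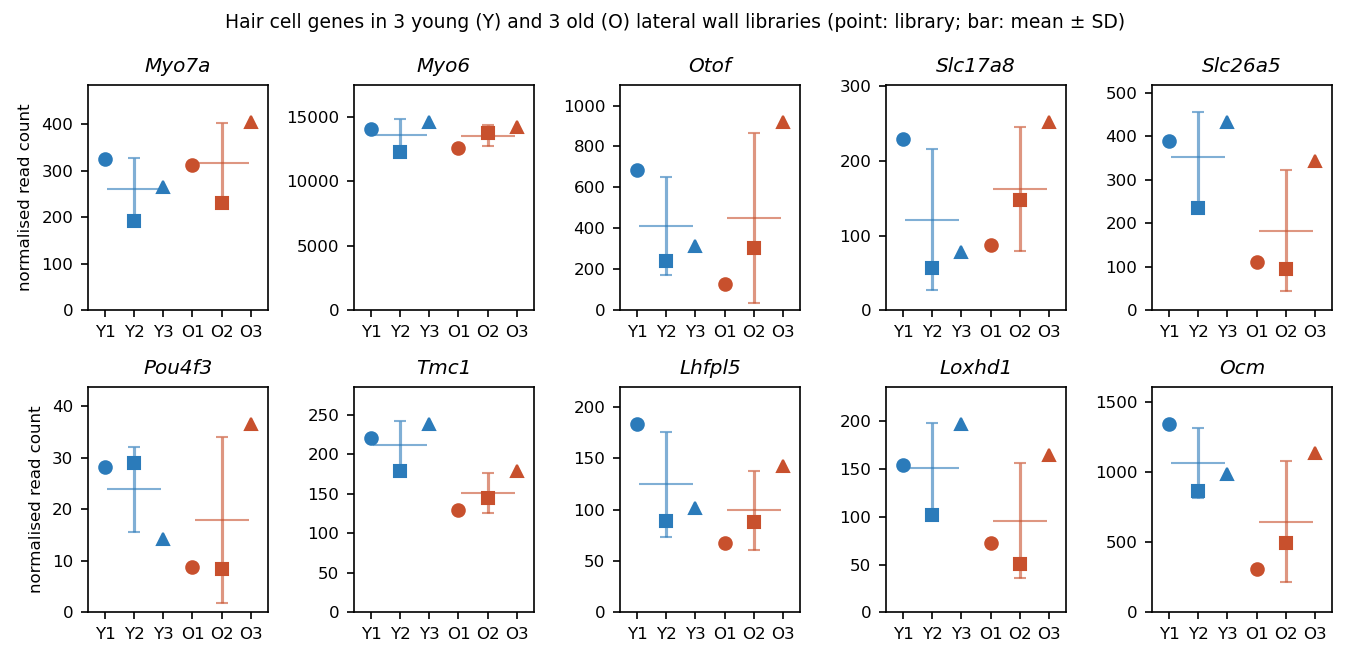
Normalised read counts (vertical axis, from 0) of the 10 hair cell genes in young replicates 1 to 3 (Y1 to Y3, blue) and old replicates 1 to 3 (O1 to O3, orange); points are libraries and bars the group mean ± SD. Old replicate 3 is the highest old library for all 10 genes, and the groups separate for Tmc1 alone, by less than 1 normalised read count.

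The genes of the motor proteins and the transcription factor did not separate the ages. Myo7a encodes the unconventional myosin of the bundle's tip-link anchorage. It had 325, 193 and 266 normalised read counts in young replicates 1, 2 and 3 and 312, 231 and 405 in old replicates 1, 2 and 3. Young replicate 2 was lowest and old replicate 3 highest, and the groups overlapped (log2 fold change, old minus young, 0.27 ± 0.26 SE, limma adjusted p = 0.606). Myo6 encodes the myosin that moves toward the minus end of actin, and epithelia outside the ear use it too. Its values were 14032, 12249 and 14598 in young and 12627, 13757 and 14216 in old replicates 1, 2 and 3. All 6 lay within 1.19-fold of each other, and the 95% interval of its log2 fold change ran from −0.24 to 0.23. Myo6 alone made up 79.8% to 91.2% of the summed normalised read counts of the 10 genes. Pou4f3, the transcription factor that hair cells need to survive, was the scarcest member. It had 28.3, 29 and 14.3 normalised read counts in the young and 8.73, 8.51 and 36.5 in the old replicates 1, 2 and 3, from 69 reads in all young and 56 in all old libraries. The old values fell on both sides of the young ones, and the interval of the log2 fold change, −1.98 to 0.67, was wide (limma adjusted p = 0.575).

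For the genes of transduction and of the bundle membrane, at least 2 of the 3 old libraries lay below every young library, and none of the genes passed the adjusted test. Tmc1 encodes the pore-forming subunit of the transduction channel. Its values were 220.3, 179 and 238 in young and 129, 145 and 179 in old replicates 1, 2 and 3. The groups did not overlap, but the lowest young library (179.4) and the highest old library (178.7) were less than 1 normalised read count apart. It was the only 1 of the 10 genes without overlap, and 26.1% of all genes had none. Means were 213 ± 30 for the young group and 151 ± 25.4 for the old (SD, n = 3). The log2 fold change was −0.50 ± 0.21, with a 95% interval of −0.96 to −0.03 and a limma adjusted p of 0.209. Lhfpl5, the tetraspan partner that links the channel to the tip link, had 183, 89.2 and 102 in young and 67.9, 87.9 and 142 in old replicates 1, 2 and 3. Its highest library in each group was young replicate 1 and old replicate 3, and its log2 fold change was −0.32 ± 0.35. Loxhd1 encodes a protein of repeated PLAT domains along the stereocilia membrane, and loss of it causes deafness. Its values were 154, 102 and 197 in young and 72.7, 51.1 and 165 in old replicates 1, 2 and 3. Old replicates 1 and 2 were below every young library and old replicate 3 was within the young range (log2 fold change −0.77 ± 0.43, limma adjusted p = 0.347).

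Genes of the inner hair cell synapse had the widest spread of the 10 among young mice, with an SD of log2 values of 0.79 for Otof and 1.06 for Slc17a8. Otof encodes otoferlin, the calcium sensor for vesicle release. It had 687, 241 and 312 normalised read counts in the young and 126, 303 and 919 in the old replicates 1, 2 and 3, a range of 7.29-fold between the extremes, both of which were old mice. Its log2 fold change of −0.19 had a 95% interval from −1.98 to 1.61, so an old level between 0.253 and 3.05 times the young level remains possible. Slc17a8 encodes VGLUT3, which fills the vesicles with glutamate. It had 229.8, 56 and 77.6 in young and 87.3, 148 and 252 in old replicates 1, 2 and 3. In young mice replicate 1 stood 3.44-fold above the mean of the other 2 libraries, and the groups overlapped (log2 fold change 0.56 ± 0.56, limma adjusted p = 0.625).

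Genes of outer hair cells had the largest negative log2 fold changes of the 10, Slc26a5 first and Ocm next. Slc26a5 encodes prestin, the motor protein of outer hair cell length changes. It had 389, 235 and 433 normalised read counts in the young and 111, 94.6 and 343 in the old replicates 1, 2 and 3. Old replicates 1 and 2 were below every young library, and old replicate 3 lay inside the young range. Means were 353 ± 104 for the young group and 183 ± 139 for the old. The log2 fold change was −1.15 ± 0.48, with a 95% interval of −2.26 to −0.03 and a limma adjusted p of 0.223. Ocm encodes oncomodulin, the calcium-binding parvalbumin of outer hair cells. It had 1339.7, 864 and 987 in young and 309, 498 and 1135 in old replicates 1, 2 and 3, with the same split of the old libraries. Means were 1064 ± 247 for the young group and 647 ± 432 for the old (log2 fold change −0.90 ± 0.45, limma adjusted p = 0.304).

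Without old replicate 3 the outer hair cell genes passed the test. Slc26a5 then had a log2 fold change of −1.72 ± 0.28 (95% interval −2.37 to −1.07, limma adjusted p = 0.0236) and Ocm −1.41 ± 0.25 (−1.99 to −0.83, adjusted p = 0.0299). These were 2 of the 10 genes, where 3.58% of all genes passed by the same rule in either direction and 2.07% were lower. The count at an unadjusted p under 0.05 was 5 of 10, each lower in old mice, where 20.7% of all genes passed in either direction and 11.4% were lower, and the median log2 fold change was −0.78. Without any other library 0 of 10 passed, and the adjusted p of Slc26a5 over the 6 runs reached 0.521 and that of Ocm 0.535. Old replicate 3 was the highest old library for all 10 genes and for 37.3% of all genes. Leaving it out therefore lowers the old mean of each of the 10 by construction. The shares over all genes are thus not a like comparison. Otof moved from −0.19 to −0.93 and Pou4f3 from −0.65 to −1.31 without old replicate 3, and neither passed (limma adjusted p of 0.383 and 0.167). Loxhd1 moved from −0.77 to −1.24, Lhfpl5 from −0.32 to −0.61 and Tmc1 from −0.50 to −0.62. Slc17a8 went from 0.56 to 0.18, Myo7a from 0.27 to 0.07 and Myo6 from −0.01 to −0.04, and of these 6 genes none passed (limma adjusted p of at least 0.0835).

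**Figure D2:**
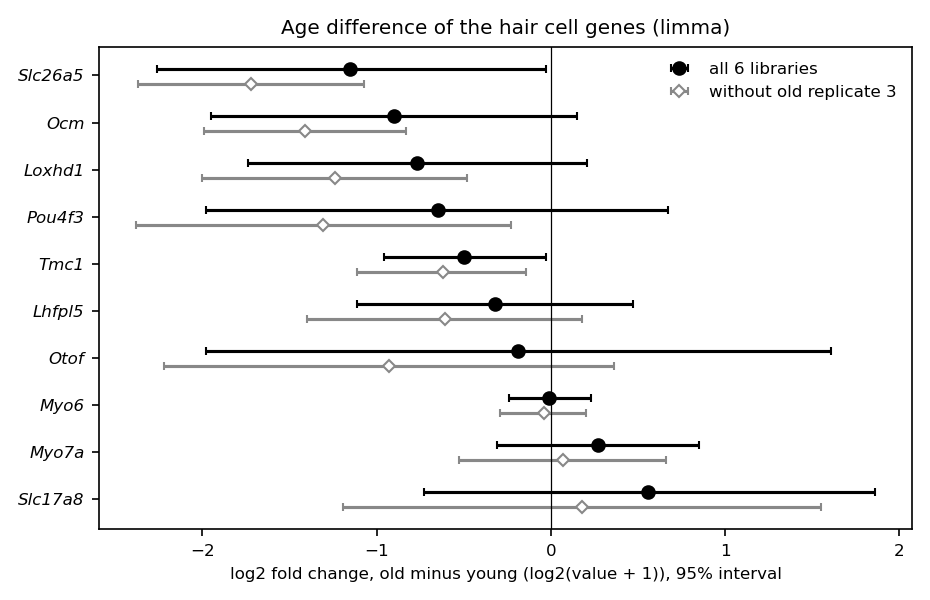
Log2 fold change between the ages (horizontal axis; negative means lower in old mice) of each hair cell gene with its 95% interval from limma; filled circles use all 6 libraries and open diamonds leave out old replicate 3. With all libraries the intervals of Slc26a5 and Tmc1 end at −0.03, and without old replicate 3 those of Slc26a5 and Ocm end at −1.07 and −0.83.

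The hair cell genes shared their highest old library, and all but 1 shared their lowest young library. All 10 were highest among the old libraries in old replicate 3, and 37.3% of all genes were. Among the young libraries 9 of 10 were lowest in young replicate 2, the exception being Pou4f3, which was lowest in young replicate 3, and 32.6% of all genes were lowest in young replicate 2. The other ends were divided. The highest young library was replicate 1 for 5 genes (40.4% of all genes), replicate 3 for 4 and replicate 2 for 1, and the lowest old library was replicate 1 for 6 and replicate 2 for 4. The ratio of old replicate 3 to the mean of old replicates 1 and 2 was 4.29 for Otof, 4.24 for Pou4f3, 3.33 for Slc26a5, 2.81 for Ocm, 2.67 for Loxhd1 and 2.14 for Slc17a8. It was 1.83 for Lhfpl5, 1.49 for Myo7a, 1.31 for Tmc1 and 1.08 for Myo6. The median SD of log2 values among mice of 1 age was 0.47 in young and 0.81 in old mice for the 10 genes, and 0.14 and 0.18 for the 13308 genes with a mean of at least 50 normalised read counts. Between old replicates 1 and 2 alone it was 0.28 for the 10 genes and 0.13 for the 13308.

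Summed over the 9 genes other than Myo6, the normalised read counts were 3556, 1988 and 2628 in young and 1225, 1567 and 3576 in old replicates 1, 2 and 3. On this scale the old libraries held both the lowest and the highest sum, the highest by a narrow margin over young replicate 1. The mean was 2724 ± 788 in young and 2122 ± 1270.4 in old mice, and 1396 over old replicates 1 and 2 alone. Per kilobase of exon, the highest sum was 2515 in young replicate 1, and old replicate 3 had 2214. This sum per kilobase was set against the summed level of 12 lateral wall markers. It amounted to 0.241% to 0.356% of that level in young libraries and to 0.178%, 0.201% and 0.655% in old replicates 1, 2 and 3. Coch, which weighs most in that marker sum, was lowest in old replicate 3, and its log2 fold change was −0.75 ± 0.26 (limma adjusted p = 0.148). The marker Otos, next in weight over the 6 libraries, was lower in old mice (−1.71 ± 0.20, limma adjusted p = 0.00321). The share therefore depends on the level of these markers as well as on the hair cell sum, and is not a like comparison between the ages.

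Other genes of hair cells, listed by role, gave 2 calls among the 46 of 49 that were in the table, both higher in old mice, where 2.71% of all genes were called higher. The median log2 fold change of the 46 was −0.13. Pls1, which encodes the actin bundler plastin 1 of stereocilia and of gut microvilli, rose. Its normalised read counts averaged 679.5 ± 73.5 for the young group and 1286 ± 148 for the old, with a log2 fold change of 0.92 ± 0.13 (limma adjusted p = 0.00754), and passed in all 6 runs without 1 library. Calb1, the calcium buffer calbindin, rose from 4.5 ± 3.65 to 41.4 ± 13.8, from 13 reads in all young and 130 in all old libraries (3.15 ± 0.59, adjusted p = 0.0193). Its call was lost in 3 of the 6 runs, without young replicates 1 or 3 or old replicate 3, with adjusted p up to 0.054.

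By role, 0 of 7 transduction and tip-link genes, 1 of 20 hair bundle genes, 0 of 12 synapse and channel genes, 1 of 3 calcium buffers and 0 of 4 transcription factors passed. Tmie and Cib2, which encode further parts of the transduction complex, had log2 fold changes of 0.32 ± 0.21 and −0.06 ± 0.17. Strc, the gene of stereocilin that couples outer hair cell bundles to each other and to the tectorial membrane, had 493, 267 and 406 normalised read counts in the young and 137, 109 and 379 in the old replicates 1, 2 and 3. Its split of the old libraries matched that of Slc26a5 (−1.08 ± 0.46, limma adjusted p = 0.226). Chrna9 and Chrna10, the acetylcholine receptor subunits through which efferent fibres inhibit outer hair cells, had −0.36 ± 0.42 and −0.52 ± 0.38. The bundle gene Eps8l2 and the potassium channel gene Kcnma1 had −0.23 ± 0.09 and 0.52 ± 0.21 (adjusted p of 0.194 and 0.204).

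Without old replicate 3, 4 of these 46 genes were lower in old mice (2.07% of all genes) and 1, Pls1, was higher (1.51% of all genes). The lower ones were Strc (−1.62 ± 0.28, limma adjusted p = 0.0271), Chrna10 (−1.01 ± 0.20, adjusted p = 0.0405), the stereocilia motor gene Myo15 (−1.81 ± 0.25, adjusted p = 0.0133) and the tip-link cadherin gene Cdh23 (−1.60 ± 0.33, adjusted p = 0.0418). Myo15 and Cdh23 are named after their values were seen. Without old replicate 1 the count was 5 higher, where 3.01% of all genes were, and 0 lower, namely Pls1, Calb1, Pvalb, Calb2 and Cabp1. In old replicate 3, 34 of the 46 genes (73.9%) were highest among the old libraries, and 37.3% of all genes were. Leaving that library out therefore lowers the old means of these 34 by construction.

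The calcium buffer genes Pvalb and Calb2 had a different pattern from the hair cell genes, although hair cells express both. Pvalb had 78.7, 52.9 and 47 normalised read counts in the young and 75.6, 424 and 473 in the old replicates 1, 2 and 3. Calb2, the gene of calretinin, had 385, 256 and 178 in young and 222, 2928 and 2547 in old replicates 1, 2 and 3. Old replicates 2 and 3 were high and old replicate 1 was within the young range, as for 4 of 11 afferent neuron genes, among them Nefh (75.6, 1187 and 1554 in old replicates 1, 2 and 3) and Snap25 (163, 1552 and 1773). The other 7 differed from that pattern. Slc17a7 was higher in every old library (68.8, 257 and 342 against 9.19 to 31.1, limma adjusted p = 0.035). Tubb3 was high in old replicates 2 and 3 but below the young range in old replicate 1 (33, 335 and 254 against 57.2 to 68.5). Syt1 was lower in old mice (96, 73.8 and 101 against 181 to 229.8, limma adjusted p = 0.0189). Slc17a7, Tubb3 and Syt1 are named after their values were seen. Neither Pvalb nor Calb2 passed in limma (adjusted p of 0.132 and 0.282), while the authors' deposited table gives them adjusted p of 0.000111 and 0.0389. Afferent neurons of the cochlea express both buffers as well, and their part in these values was not tested.

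Of 8 marker lists of other cell types, 3 had the order of the old libraries that the hair cell genes had, lowest in replicate 1 and highest in replicate 3: supporting cells, Schwann cells and vestibular epithelium. Among 11 supporting cell genes of the organ of Corti, the median log2 difference from the young mean was −0.32, −0.18 and 0.02 in old replicates 1, 2 and 3, the same order as for the 9 hair cell genes without Myo6 (−0.99, −0.54 and 0.26). Ceacam16, whose protein joins the tectorial membrane, had 11881, 7120.2 and 10019 normalised read counts in the young and 7601, 8299 and 9611 in the old replicates 1, 2 and 3. Fgfr3, a receptor of pillar and Deiters cells, had 1681 to 2106 in young and 2387, 1829.8 and 2096 in old replicates 1, 2 and 3. Lgr5, a Wnt co-receptor of some supporting cells, had 2774, 2601 and 3292 in young and 2239, 1485 and 988 in old replicates 1, 2 and 3, lowest where the hair cell genes were highest among the old. It did not pass (−0.95 ± 0.27, limma adjusted p = 0.0879). The order given for the supporting cell list is that of its median and not of each gene. Among the old libraries, Ceacam16 was highest in replicate 3, but Fgfr3 and Lgr5 were highest in replicate 1. Of the 11 genes, limma called 1 higher, where 2.71% of all genes were, and 0 lower. It was Otog, the gene of otogelin (0.78 ± 0.18, adjusted p = 0.0389), which is named after its value was seen.

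Neuron and Schwann cell genes were high in old replicates 2 and 3, and marrow genes in old replicates 1 and 3. The median log2 difference from the young mean over 11 afferent neuron genes was 0.11, 2.41 and 2.02 in old replicates 1, 2 and 3, and over 6 Schwann cell genes −0.42, 1.30 and 1.33. Over 14 blood and marrow genes it was 3.49, 0.86 and 4.17, with the globin gene Hba-a1 at 7831, 2734 and 15920.5 normalised read counts. Old replicate 3, the highest old library in hair cell genes, was thus also high in nerve and in marrow genes. Vestibular epithelium was represented by few reads: Kcna10 had 14.3 to 144 normalised read counts, Otop1 2.04 to 83.2 and Zpld1 10.4 to 22.7. Summed levels ran from 33.7 to 119 in young and from 89.2 to 203 in old libraries for the 4 vestibular genes, and the 5 skeletal muscle genes summed to at least 103 in each young and at most 94.6 in each old library. For 8 macrophage genes the sums were 6705 to 8170.4 in young and 23750.4 to 34240.1 in old libraries. Of these genes limma called 7 of 8 higher, where 2.71% of all genes were. The part of these cell types in the hair cell values was not tested.

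**Figure D3:**
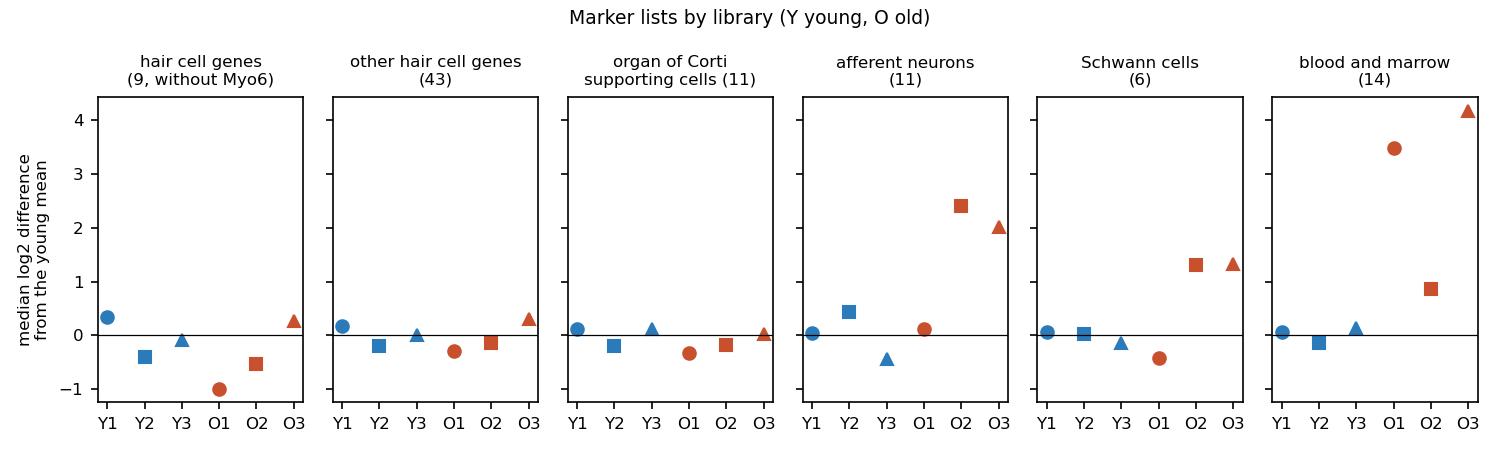
Median over each marker list of the log2 difference from the young mean (vertical axis), by library (Y1 to Y3 young, O1 to O3 old); the hair cell lists leave out Myo6 and the calcium buffers. The medians of hair cell and supporting cell genes are lowest in O1 and highest among the old in O3, though single supporting cell genes differ. Those of neuron and Schwann cell genes are high in O2 and O3, and those of blood and marrow genes in O1 and O3.

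A ratio between genes within a library would not depend on how much organ of Corti it holds if hair cells alone expressed both, which was not tested here. Such ratios were taken after the values were seen and have no test. Slc26a5 and Ocm stand for outer hair cells, and Otof and Slc17a8 for inner hair cells. The ratio of Slc26a5 to Slc17a8 in normalised read counts was 1.69, 4.2 and 5.58 in young and 1.28, 0.637 and 1.36 in old replicates 1, 2 and 3. That of Ocm to Slc17a8 was 5.83, 15.4 and 12.7 in young and 3.54, 3.36 and 4.51 in old replicates 1, 2 and 3. Both were lower in every old than in every young mouse. The ratio of Slc26a5 to Otof was 0.566, 0.978 and 1.39 in young and 0.885, 0.313 and 0.373 in old replicates 1, 2 and 3, and that of Ocm to Otof 1.95, 3.59 and 3.16 against 2.45, 1.65 and 1.24. Both of these overlapped, with lower means in old mice (0.524 ± 0.314 against 0.977 ± 0.41, and 1.78 ± 0.62 against 2.9 ± 0.851, SD, n = 3). Of all 45 pairs among the 10 genes, 10 ratios (22.2%) did not overlap between the ages, and 2 of these 4 pairs were among them. In 5 of the 10 pairs Myo7a was the gene that stood relatively higher in old mice.

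**Figure D4:**
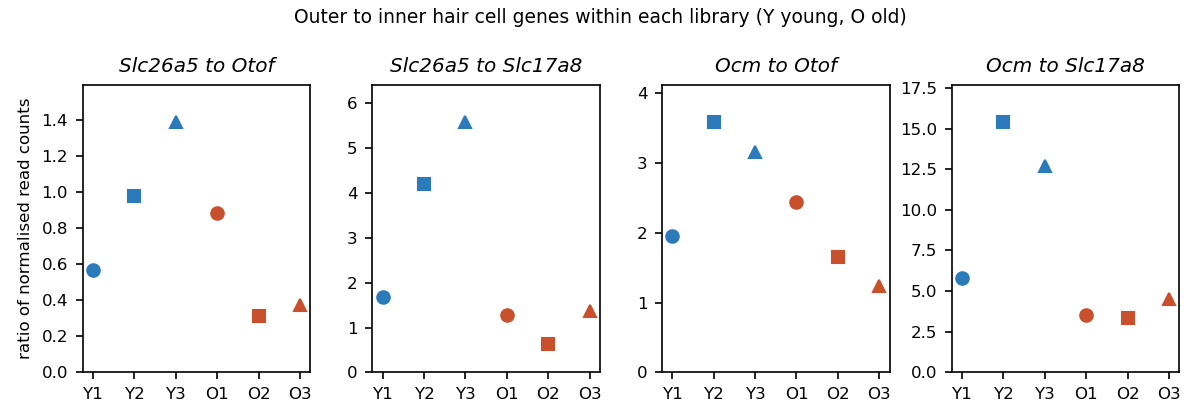
Ratio of normalised read counts (vertical axis, from 0) of an outer hair cell gene (Slc26a5 or Ocm) to an inner hair cell gene (Otof or Slc17a8) within each library; Y1 to Y3 are young and O1 to O3 old replicates. Ratios to Slc17a8 are at most 1.36 and 4.51 in old libraries and at least 1.69 and 5.83 in young ones, while ratios to Otof overlap.

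The pattern of the 10 genes was compared with that of 13308 genes with a mean of at least 50 normalised read counts. The mean profile of the 10, each gene's log2 values set against its own mean, was 0.59, −0.18 and 0.14 in young and −0.69, −0.47 and 0.62 in old replicates 1, 2 and 3. Lhfpl5 lay nearest to it among the members, with a root mean square difference of 0.16 log2 units over the 6 libraries, and Slc17a8 farthest at 0.63. The nearest named genes outside the marker lists were Ap3b2 (0.11), Osbp2 (0.12), Lrrc4b (0.13), Cd164l2 (0.15) and Hunk (0.17). Ap3b2 encodes a subunit of the neuronal adaptor complex AP-3, and had 485, 286 and 361 normalised read counts in the young and 173, 247 and 555 in the old replicates 1, 2 and 3. With 6 libraries and many genes some must lie close to any profile.

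In GRCm38, the assembly that mm10 names, Slc26a5 lies on chromosome 5 from 21810655 to 21865604, Ocm on chromosome 5 from 144019804 to 144026670 and Otof on chromosome 5 from 30367062 to 30461932. Slc17a8 lies on chromosome 10 from 89574020 to 89621253, Tmc1 on chromosome 19 from 20783458 to 20954202, Lhfpl5 on chromosome 17 from 28575641 to 28585679 and Loxhd1 on chromosome 18 from 77281958 to 77442930. Myo7a lies on chromosome 7 from 98051060 to 98119524, Myo6 on chromosome 9 from 80165031 to 80311729 and Pou4f3 on chromosome 18 from 42394539 to 42397249. Each value is a count over the whole gene. Myo6, Tmc1 and Loxhd1 share ground with an annotated gene of the other strand, as do Tmie, Cib2, Strc, Kcnma1, Eps8l2, Chrna10, Cdh23, Lgr5 and Ceacam16, so reads of these genes are uncertain where counting ignored strand. Hba-a1 has a near-identical copy, and its reads cannot be assigned with certainty.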

How the data were processed

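Gene-level RNA-seq of 6 lateral wall libraries, 3 young and 3 old mice, was analysed from 1 deposited table. Per the submitters' processing notes, Partek, TopHat2, DESeq2 and the build mm10 were used. Versions, roles, annotation and strand handling are not given in the sources used here. Values that the authors deposited are a normalised signal: read counts scaled by 1 size factor per library. Low values are whole multiples of 1 step per library, and division by it gave numbers within 0.1 of a whole number for at least 99.883% of values and for 100% of those under 10000. The authors deposited a p-value, an adjusted p-value (absent for 332 genes) and a signed fold change score per gene.

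Ages were compared with limma 3.58.1 (R 4.3.3; trend, robust) on log2(value + 1), which understates changes of genes with few reads, with no filter. Adjustment was Benjamini-Hochberg over all 17091 genes. Intervals are 95%, ± is SE for log2 fold changes and SD otherwise. Pooled over genes, counting error alone is a small part of the spread between mice. It can be a larger part for genes with few reads, such as Pou4f3 and Calb1. Exact permutation tests were not run, since 3 against 3 cannot go below p = 0.1. edgeR 4.0.16 and DESeq2 1.42.0 were run on recovered reads as alternatives, beside another scaling, filters, pseudocounts, a replicate block and leaving out each library. The limma, edgeR and DESeq2 fits were tested on simulated data. Named were all members, the 6 other hair cell genes with the smallest p and 10 fixed ones, the 3 most abundant genes of each other marker list, and the 5 nearest profiles. Some of these are given as list counts only. Replicate pairs within an age differed by more than sampling noise. Exon lengths and positions are from GENCODE M21 (GRCm38). The members and lists were chosen with earlier results of these data known. Single values of some genes on these lists are not reported here.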

Additional observations from a re-analysis of the deposited data

How the results depend on the processing

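The count of 0 of 10 hair cell genes held under every alternative run except leaving out old replicate 3, which gave 2 (range 0 to 2 without 1 library). Of 169 values of single members under the alternatives, 157 kept their direction and side of the threshold. The 2 that newly passed were Slc26a5 and Ocm without old replicate 3, where fewer samples and a smaller spread entered the fit. The reversed values belong to the 2 members nearest to 0. Myo6 had 0.10 with quantile normalisation, against −0.01, and −0.08 to 0.04 without 1 library. Otof had 0.12 with edgeR under both scalings, with DESeq2 and in the authors' deposited table, against −0.19, and −0.93 to 0.50 without 1 library. Its mean normalised read counts were 413 in young and 449 in old mice, whereas limma compares means of log2 values. The cause of the reversal was not tested. Over all genes, 898 calls became 307 without the limma trend, 406 with the replicate block, 1819 with DESeq2, 1818 in the authors' deposited table and 230 to 1134 without 1 library. The other hair cell genes gave 2 calls, 1 without the trend, 1 at a mean of at least 50 (Calb1 is then not tested), 4 with DESeq2, 4 in the authors' deposited table and 1 to 5 without 1 library. Replicate numbers did not pair the mice: deviations of same-numbered libraries correlated at −0.244, −0.096 and −0.088, and with the replicate block 0 of 10 members and 2 other hair cell genes passed. The log2 difference between ages of the summed members was −0.06, but −0.48 without Myo6, −0.34 per kilobase and −0.79 per kilobase without Myo6, so it depends on whether Myo6 is included and on the scaling by length. The spread between mice limits what could be detected, and Pou4f3 also had few reads.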
